A study of Canis lupus familiaris with 9 samples.

Results

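Mitochondrial ribosomal protein genes were followed in 9 RNA sequencing libraries of dog CD4+ T cells and of CD4+ PTCL, peripheral T-cell lymphoma, which arises from mature T lymphocytes. The members are all features whose gene symbol starts with MRPL or MRPS and continues with a number: 61 of the 28008 features in the files, 39 with MRPL and 22 with MRPS symbols. They carry 60 distinct symbols, because MRPL33 stands beside 2 gene identifiers, ENSCAFG00000005180 and ENSCAFG00000005186, between which reads of that gene could be split. All 61 passed the filter on low values, which asked for at least 10 normalised reads in at least 3 libraries. MRPL12, MRPL45 and MRPS18C were not analysed here, and they are not the only mitoribosomal proteins without a feature among the 61. The counts by subunit below therefore cover only part of the mitoribosome.

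The mitochondrial ribosome, or mitoribosome, translates the few proteins that the mitochondrial genome encodes, all of them subunits of the respiratory chain or the ATP synthase. Its ribosomal RNAs come from the mitochondrial genome, while its proteins are encoded in the nucleus, made on cytosolic ribosomes and imported. Part of the proteins descend from those of bacterial ribosomes and part are found only in mitochondria, and they form a large subunit, which joins amino acids, and a small subunit, which reads the messenger RNA. Symbols do not always give the subunit: MRPS30 and MRPS18A lie in the large subunit of mammals, and MRPS36 is now known as a part of the 2-oxoglutarate dehydrogenase complex. Placed by the unified nomenclature of the mammalian mitoribosome, 41 of the 61 features belonged to the large subunit, 19 to the small one, and MRPS36 to neither.

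The lymphoma libraries came from 3 Boxers, a castrated male of 6 years, a spayed female of 8 and a castrated male of 6 (Boxer lymphomas 1 to 3). A further 3 came from dogs of other breeds (other-breed lymphomas 1 to 3): a spayed Cavalier King Charles Spaniel of 3 years, a spayed Rhodesian Ridgeback of 4 and a castrated Collie of 11. The 3 controls were sorted CD4+ T cells of healthy hounds, each labelled female, not neutered and 1 year old. Disease therefore goes with breed, age and neutering, and the labels name neither the tissue of the lymphomas nor any sorting of them. Separate control dogs are not stated, so the p-values rest on a spread between samples that may be technical. In bulk RNA, fewer cells of a type and less of an RNA in each cell cannot be told apart.

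The libraries held 11710623 to 18488468 reads over genes. T-cell markers were present in every library: CD3E, a chain of the T-cell receptor complex, had 13794 to 22222 normalised reads in lymphomas and 19717 to 21357 in controls, and 1 of 8 T-cell markers, CD3G, passed the limma test between them. CD5, a T-cell surface receptor, went the other way, with 265 in Boxer lymphoma 2 and 3546 to 4320 in the other lymphomas, against 10272 to 10649 in controls. Every lymphoma lay below every control for it (log2 fold change -2.09 ± 0.78, SE; limma adjusted p = 0.0591), and edgeR and DESeq2 each called 1 T-cell marker lower. The lymphoma libraries also held markers of other kinds of cell. The summed level of 10 monocyte and macrophage markers was 902.8 to 21199.3 normalised reads in lymphomas and 126.9 to 198.1 in controls, where FCER1G was at 0 in all 3 libraries. Of these markers 9 could be tested and 9 were higher, as were 4 of 4 neutrophil, 6 of 8 stromal and 3 of 6 endothelial markers. Of all genes tested 19.4% were higher. The log2 fold changes of the endothelial markers ran from -1.01 to 5.65. Their sum was 94.2 and 100.2 in other-breed lymphomas 1 and 2, below the controls at 305.6 to 690.6. It was 1444.3 to 6243.9 in the other lymphomas. Of 6 B-cell markers 0 passed with limma, edgeR or DESeq2, and 1 had an unadjusted p under 0.05. Single lymphomas stood apart there: MS4A1, the B-cell surface protein CD20, had 5123 normalised reads in other-breed lymphoma 1 and 1535 in other-breed lymphoma 3, and 121 to 302 in the other 4 lymphomas, against 209 to 366 in controls. The B-cell sum was 6329.1 in other-breed lymphoma 1 and 487.4 to 2372.1 in the other lymphomas, against 1595.9 to 1823.5 in controls. CD8A, of cytotoxic T cells, was also high in other-breed lymphoma 1, at 1089, against 13.9 to 33.9 in controls. In that library CD8B had 90.6, against 53.7 to 69.5 in controls. KLRD1, at 12.9, and GZMB, at 9.42, lay there within the control ranges, 8.26 to 31.4 and 9.26 to 62.8. Of 5 cytotoxic markers 1 passed the limma test, PRF1, with 50.2 to 121 normalised reads in lymphomas, against 9.26 to 21.8 in controls. Stromal markers summed to 77.3 in other-breed lymphoma 2 and 138.9 in other-breed lymphoma 1, up to 11338.7 in Boxer lymphoma 3, against 12.4 to 24.6 in controls, where MMP2 and LUM were at 0. Of 7 genes of dividing cells 7 were higher, and their sum was 11647.5 to 32270.1 normalised reads in lymphomas and 1709.8 to 1990.2 in controls. The part of these cells and of cell division in the results that follow was not tested.

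Mitoribosomal protein genes were more often higher than lower in lymphomas, and by small amounts. A member counted as changed when its adjusted p was under 0.05 (limma on log2 values, Benjamini-Hochberg over 15977 genes). In the 6 lymphomas 16 members rose relative to the 3 controls (26.2% of 61), where 19.4% of all genes tested rose. Another 2 members fell (3.3%), where 15.7% of all genes fell, and 43 did not pass. The median log2 fold change of the 61 was 0.38, with quartiles at 0.02 and 0.72, against a median of 0.05 over all genes. It was above 0 for 46 members (75.4%), and for 51.8% of all genes. Large changes were uncommon: 5 members had a fold above 2 (8.2%, against 21.8% of all genes), and 0 members had a fold below 0.5, where 17.3% of all genes did.

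Counted without a model, 18 members were higher in every lymphoma than in every control (29.5%), where 18.5% of all genes were. Another 3 members were lower in every lymphoma (4.9%), where 17.2% of all genes were. With edgeR's quasi-likelihood test on recovered reads 14 members rose and 2 fell, and with DESeq2 20 rose and 2 fell. The count of 16 moved with the controls: it was 7 without control 1 and 7 without control 2. Over all genes 2078 of 15654 rose without control 1 and 1866 of 15713 without control 2. The share of members that rose was then no longer above that of all genes. The count of 2 was 0 without any 1 of the controls and 1 without other-breed lymphoma 1, where 15 rose. With age as a covariate 2 members rose and 0 fell, and of all 15977 genes 1048 rose and 885 fell. With age, too, the share of members that rose was not above that of all genes. Of the 18 members past the threshold, the 14 given below with values in every library all kept their sign, and the 12 that rose had a median log2 fold change of 0.89 with age and 0.98 without it. MRPL51 was at 1.16 with age (limma adjusted p = 0.0877) and MRPL19 at -1.27 (limma adjusted p = 0.0900). Since every control dog was 1 year old and every dog with lymphoma older, age and disease cannot be told apart.

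**Figure D1:**
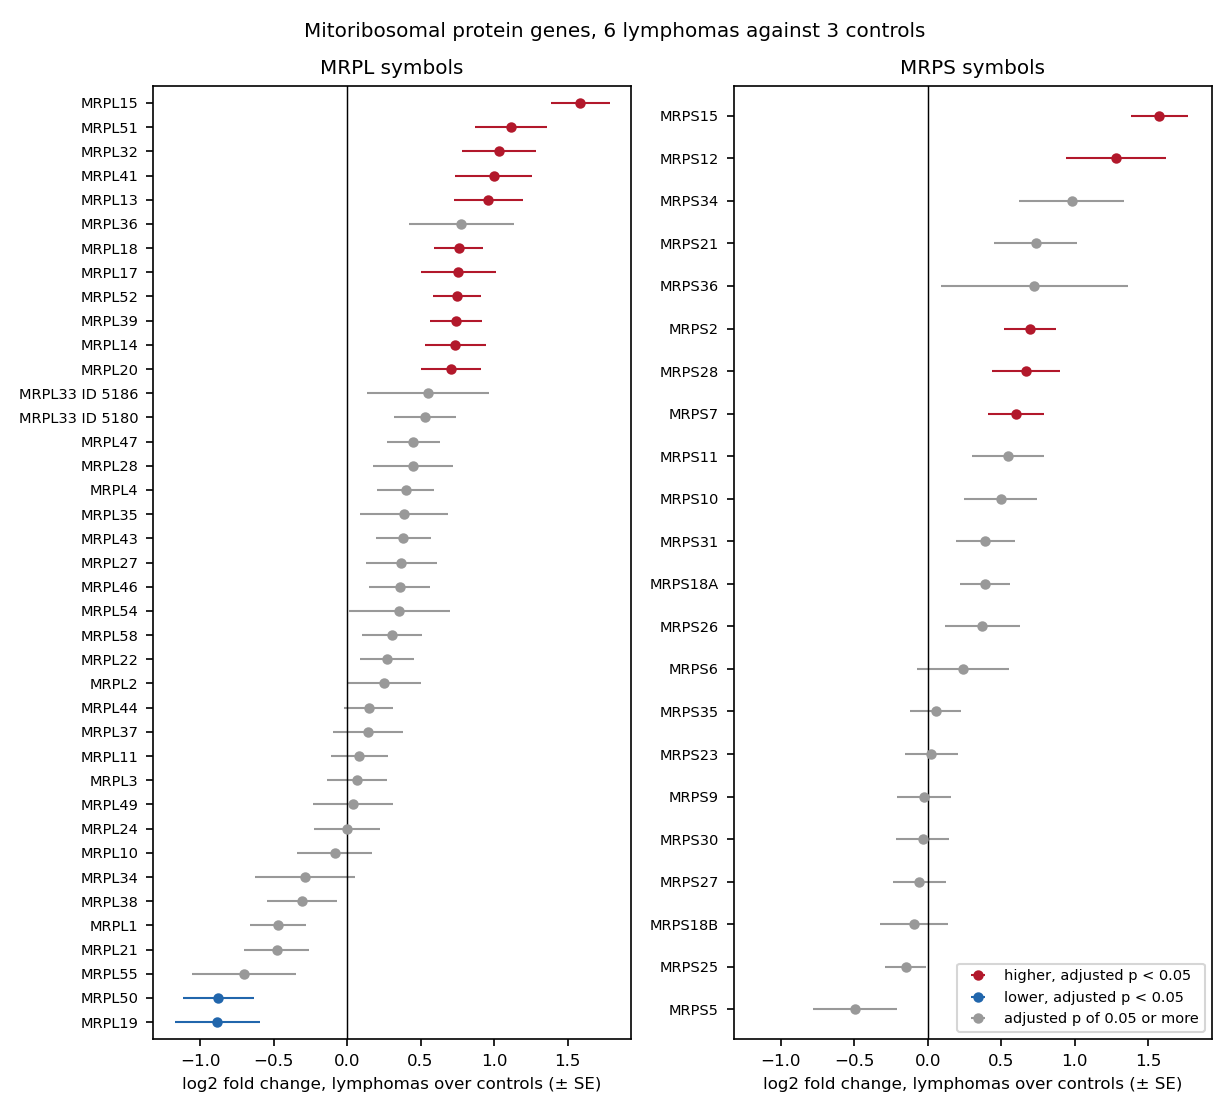
Log2 fold change of each of the 61 members, 6 lymphomas over 3 controls, on the x axis, with its standard error as a bar, MRPL symbols on the left and MRPS symbols on the right. Red marks the 16 members that rose and blue the 2 that fell at an adjusted p under 0.05. MRPL15 and MRPS15 lie farthest to the right, at 1.59 and 1.58.

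Of the 41 large-subunit features, 11 rose, 2 fell and 28 did not pass the test. By the unified names 26 of them are bacterial relatives, of which 7 rose and 1 fell. Of the 15 named as mitochondria-specific, MRPS18A among them, 4 rose and 1 fell. Such a name does not exclude a bacterial relative. Of all genes tested 19.4% rose and 15.7% fell, and no difference of these groups from those shares was tested. The bacterial relatives that rose were MRPL15, MRPL32, MRPL13, MRPL18, MRPL17, MRPL14 and MRPL20.

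MRPL15, relative of bacterial protein L15 of the large subunit, and MRPS15 of the small one had the largest fold changes. Their order turned with the samples, since in Boxer lymphomas alone MRPL15 was at 1.67 and MRPS15 at 1.72 on the log2 scale. MRPL15 had 737, 708 and 959 normalised reads in Boxer lymphomas 1 to 3 and 547, 924 and 702 in other-breed lymphomas 1 to 3, against 227, 253 and 270 in controls 1 to 3. Every lymphoma lay at more than 2 times the highest control. The log2 fold change was 1.59 ± 0.20 (SE), a fold of 3.00 (limma adjusted p = 0.000387), and the call held under all 20 alternative settings.

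MRPL32 encodes a protein that, in yeast and mouse, is cut by the m-AAA protease of the inner membrane before it joins the ribosome. Boxer lymphomas 1 to 3 had 421, 406 and 385 normalised reads of it and other-breed lymphomas 341, 256 and 341, against 119, 217 and 198 in controls. All lymphomas exceeded all controls, with the Boxers highest and control 1 lowest. It rose by 1.03 ± 0.25 on the log2 scale (SE; limma adjusted p = 0.0107).

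MRPL13, relative of bacterial L13, stood at 331, 578 and 434 normalised reads in Boxer lymphomas and 441, 305 and 345 in other-breed lymphomas, against 231, 180 and 202 in controls. Boxer lymphoma 2 was highest, and the groups did not overlap. Its log2 fold change was 0.96 ± 0.24 (SE; limma adjusted p = 0.0108). MRPL18, whose bacterial relative binds the 5S ribosomal RNA, had 570, 724 and 884 normalised reads in Boxer lymphomas and 693, 811 and 702 in other-breed lymphomas, against 444, 400 and 440 in controls. The lowest lymphoma, Boxer lymphoma 1, still lay above the highest control. MRPL18 rose by 0.76 ± 0.17 on the log2 scale (SE; limma adjusted p = 0.00688), and lost its call only with age as a covariate among the settings tried.

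MRPL20, relative of a bacterial protein that acts early in large-subunit assembly, had 620, 956 and 1125 normalised reads in Boxer lymphomas and 1184, 882 and 966 in other-breed lymphomas, against 619.7, 584 and 520 in controls. Boxer lymphoma 1, at 620.2, all but touched control 1, and the other 5 lymphomas lay well above. The log2 fold change was 0.71 ± 0.21 (SE; limma adjusted p = 0.0233). To complete the count, MRPL14 rose by 0.74 ± 0.21 (SE; limma adjusted p = 0.0208) and MRPL17 by 0.76 ± 0.26 (SE; limma adjusted p = 0.0434) on the log2 scale. MRPL17 was the only one of the 16 whose groups overlapped: Boxer lymphoma 2, with 265 normalised reads, lay just under control 3, with 267. Its call was lost under 12 of 20 alternative settings.

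The mitochondria-specific proteins of the large subunit that rose were MRPL51, MRPL41, MRPL52 and MRPL39. MRPL51 had 225, 192 and 368 normalised reads in Boxer lymphomas and 252, 289 and 287 in other-breed lymphomas, against 108, 126 and 130 in controls. Boxer lymphoma 3 was highest, and no lymphoma reached down to the controls. MRPL51 rose by 1.11 ± 0.25 on the log2 scale (SE; limma adjusted p = 0.00674).

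MRPL41 stood at 278, 360 and 257 normalised reads in Boxer lymphomas and 525, 439 and 432 in other-breed lymphomas, against 167, 178 and 214 in controls. The other-breed lymphomas were highest, the Boxers came next, and the controls were lowest, with no overlap among the 3 groups. Lymphomas over controls, the log2 fold change was 1.00 ± 0.26 (SE; limma adjusted p = 0.0145). MRPL52 rose by 0.75 ± 0.16 (SE; limma adjusted p = 0.00627) and MRPL39 by 0.74 ± 0.18 (SE; limma adjusted p = 0.00960) on the log2 scale, each without overlap.

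**Figure D2:**
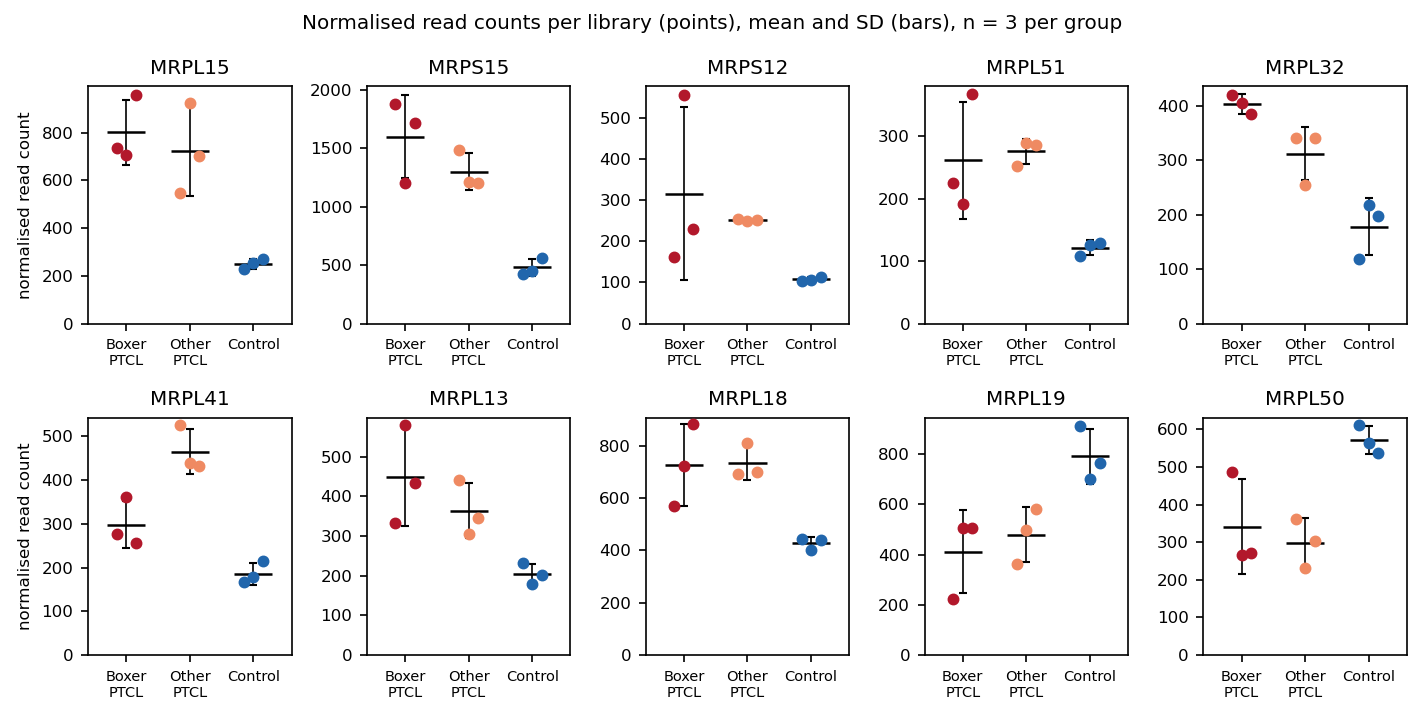
Normalised read counts per library (y axis, from 0) for the 8 members with the largest rise among those past the threshold and for the 2 that fell, with Boxer lymphomas, other-breed lymphomas and controls from left to right. Points are libraries, and horizontal bars and error bars give the mean and SD (n = 3 per group). The lymphoma and control points do not overlap in any panel, and MRPS12 in Boxer lymphoma 2, at 555, stands apart from its group.

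The members that fell were MRPL19 and MRPL50, both of the large subunit. MRPL19, relative of bacterial L19, had 222, 506 and 507 normalised reads in Boxer lymphomas and 363, 497 and 581 in other-breed lymphomas, against 912, 699 and 763 in controls. Every lymphoma lay below every control, with Boxer lymphoma 1 lowest of all. Its log2 fold change was -0.88 ± 0.29 (SE; limma adjusted p = 0.0375), and the call was lost under 7 of 20 settings. MRPL50, a mitochondria-specific protein, had 487, 265 and 272 normalised reads in Boxer lymphomas and 363, 230 and 304 in other-breed lymphomas, against 611, 565 and 537 in controls. Boxer lymphoma 1, lowest for MRPL19, was the highest lymphoma for MRPL50, and the groups did not overlap. MRPL50 fell by 0.88 on the log2 scale (SE 0.24; limma adjusted p = 0.0181), a call lost under 4 of 20 settings.

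MRPL11, MRPL10, MRPL3 and MRPL58 are described for their known roles, and they did not pass the test. MRPL11 and MRPL10 belong to the base of the stalk that recruits translation factors. MRPL11 had 369 to 441 normalised reads in lymphomas, with a median of 399, against 277, 432 and 449 in controls. The lymphoma values lay inside the control range, and the log2 fold change was 0.08 ± 0.19 (SE; limma adjusted p = 0.758). MRPL10 ranged over 121 to 207 in lymphomas with a median of 172, against 147, 171 and 218 in controls. The groups overlapped, the log2 fold change was -0.09 ± 0.25 (SE; limma adjusted p = 0.813), and its sign turned to 0.01 when libraries were scaled by their reads outside the mitochondrial genome.

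MRPL3, relative of the bacterial L3 protein near the peptidyl transferase centre, had 620 to 983 normalised reads in lymphomas with a median of 859, against 960, 898 and 577 in controls. Its controls spread as widely as its lymphomas, and the log2 fold change was 0.07 ± 0.21 (SE; limma adjusted p = 0.813). MRPL58, a peptidyl-tRNA hydrolase of the large subunit that acts on stalled ribosomes, had 230 to 344 normalised reads in lymphomas with a median of 301, against 213, 249 and 255 in controls. Of the 6 lymphomas 5 lay above all controls, and the log2 fold change was 0.30 ± 0.20 (SE; limma adjusted p = 0.266).

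MRPS30 and MRPS18A, large-subunit proteins in spite of their symbols, did not pass either. MRPS30 had 492.9 to 777 normalised reads in lymphomas with a median of 601, against 667, 639 and 583 in controls. Its lymphomas lay on both sides of the controls, and the log2 difference of -0.03 ± 0.18 (SE; limma adjusted p = 0.897) became 0.06 under scaling by reads outside the mitochondrial genome. MRPS18A had 408 to 560 with a median of 508 in lymphomas, against 415, 384 and 328 in controls. Of its 6 lymphomas 5 lay above all controls, at a change on the log2 scale of 0.39 ± 0.17 (SE; limma adjusted p = 0.0977).

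The small subunit had 19 members, of which 5 rose and 0 fell in the limma test. At an unadjusted p under 0.05 there were 8, edgeR's test called 4 higher and 0 lower, and DESeq2 called 7 higher and 0 lower. All 5 were among the 11 that the unified names mark as bacterial relatives, whose median log2 fold change was 0.60. The other 8 are named as mitochondria-specific, MRPS18B among them. Of these 8 the limma test and edgeR called 0 in either direction, and DESeq2 called 1 higher. Their median was 0.04, and 1 had an unadjusted p under 0.05. Of all genes tested 19.4% rose and 15.7% fell with limma. Neither the difference between these groups of members nor one from those shares was tested.

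MRPS15, relative of bacterial S15, had 1878, 1197 and 1718 normalised reads in Boxer lymphomas and 1483, 1210 and 1204 in other-breed lymphomas, against 427, 452 and 562 in controls. Every lymphoma held more than 2 times the reads of the highest control. It rose by 1.58 ± 0.19 on the log2 scale (SE), a fold of 2.98 (limma adjusted p = 0.00033), under all 20 settings. MRPL15 and MRPS15 were the members still past the threshold with age as a covariate, at 1.57 (limma adjusted p = 0.0155; 3.09e-11 to 0.0155 over all settings) and 1.76 (limma adjusted p = 0.00778; 3.85e-11 to 0.00778 over all settings).

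MRPS12 encodes the relative of bacterial S12, a protein of the decoding centre where codon and anticodon are matched. Boxer lymphomas 1 to 3 had 162, 555 and 229 normalised reads and other-breed lymphomas 254.2, 249.98 and 252, against 102, 107 and 114 in controls. Boxer lymphoma 2 had more than 2 times the reads of any other library, and even the lowest lymphoma exceeded the controls. The log2 fold change was 1.28 ± 0.34 (SE; limma adjusted p = 0.0156) over all 6 lymphomas and 1.07 without Boxer lymphoma 2 (limma adjusted p = 0.0103; 0.00162 to 0.248 over all settings).

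MRPS2 and MRPS7 are relatives of bacterial S2 and S7, and S7 is a protein that starts the assembly of the small-subunit head in bacteria. MRPS2 had 463, 551 and 567 normalised reads in Boxer lymphomas and 644, 644 and 620 in other-breed lymphomas, against 302, 366 and 413 in controls. All lymphomas were above all controls, and the rise was 0.69 ± 0.18 on the log2 scale (SE; limma adjusted p = 0.0132). MRPS7 had 404, 595 and 497 in Boxer lymphomas and 634, 635 and 669 in other-breed lymphomas, against 374, 378 and 364 in controls. The 3 controls lay close together, and Boxer lymphoma 1 was nearest to them. MRPS7 rose by 0.60 ± 0.19 (SE; limma adjusted p = 0.0346), a call lost under 9 of 20 settings.

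MRPS28, relative of bacterial S1, had 307, 564 and 515 normalised reads in Boxer lymphomas and 360, 517 and 361 in other-breed lymphomas, against 262, 279.9 and 263 in controls. No lymphoma overlapped the controls, and Boxer lymphoma 1 lay nearest to them. It rose by 0.67 ± 0.23 on the log2 scale (SE; limma adjusted p = 0.0466), a call lost under 10 of 20 settings.

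Among small-subunit members that did not pass, MRPS26 had 697 to 1718 normalised reads in lymphomas with a median of 849, against 752, 719.9 and 694 in controls. Boxer lymphoma 2 was far above all other libraries, and the log2 fold change was 0.37 ± 0.26 (SE; limma adjusted p = 0.278). MRPS18B, a small-subunit protein related to MRPS18A, had 437 to 1002 in lymphomas with a median of 605, against 685, 599 and 715 in controls. Boxer lymphoma 2 was again highest, the other lymphomas lay among or below the controls, and the log2 fold change was -0.09 ± 0.23 (SE; limma adjusted p = 0.774), with a sign that turned to 0.0009 under scaling by reads outside the mitochondrial genome. MRPS36 had 4.25 to 19.1 normalised reads in lymphomas and 15.01, 5.78 and 3.70 in controls. At such low counts its log2 fold change was 0.72 ± 0.64 (SE; limma adjusted p = 0.396).

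Of the members without overlap between groups, 3 higher and 1 lower missed the threshold, and they are named after their values were seen. MRPS10, MRPL47 and MRPL4 were higher in every lymphoma, at log2 fold changes of 0.50 ± 0.25, 0.45 ± 0.18 and 0.40 ± 0.19 (SE; limma adjusted p = 0.141, 0.0775 and 0.130). MRPS5 was lower in every lymphoma, at -0.49 ± 0.29 (SE; limma adjusted p = 0.199), with Boxer lymphoma 1 at 351 normalised reads and the other 5 at 680.3 to 933, against 947, 1055 and 1009 in controls. Both features of MRPL33 had positive log2 fold changes, 0.53 ± 0.21 for ENSCAFG00000005180 (SE; limma adjusted p = 0.0776) and 0.55 ± 0.41 for ENSCAFG00000005186 (SE; limma adjusted p = 0.317).

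Members varied less among libraries than all genes tested, a comparison that was not matched for level. The median SD of a member on the log2 scale was 0.33 over the 6 lymphomas and 0.17 over the 3 controls, against 0.56 in lymphomas and 0.25 in controls for all genes tested. The most even member in lymphomas was MRPL11, with an SD of 0.08, and the least even after MRPS36 were MRPL55 with 0.59 and MRPS12 with 0.58. No library was high or low for all members. Boxer lymphoma 1 had the lowest of the 6 lymphoma values for 29 of the 61 members and other-breed lymphoma 2 for 14, while other-breed lymphoma 1 had the highest for 15. After subtraction of each member's mean over the 9 libraries, the median member stood at -0.09 in Boxer lymphoma 1, at 0.07 to 0.24 in the other 5 lymphomas and at -0.32 to -0.21 in controls. In Boxer lymphoma 1, 18 of 61 members were above their mean, against 15, 17 and 19 in controls 1 to 3 and 36 to 48 in the other lymphomas.

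**Figure D3:**
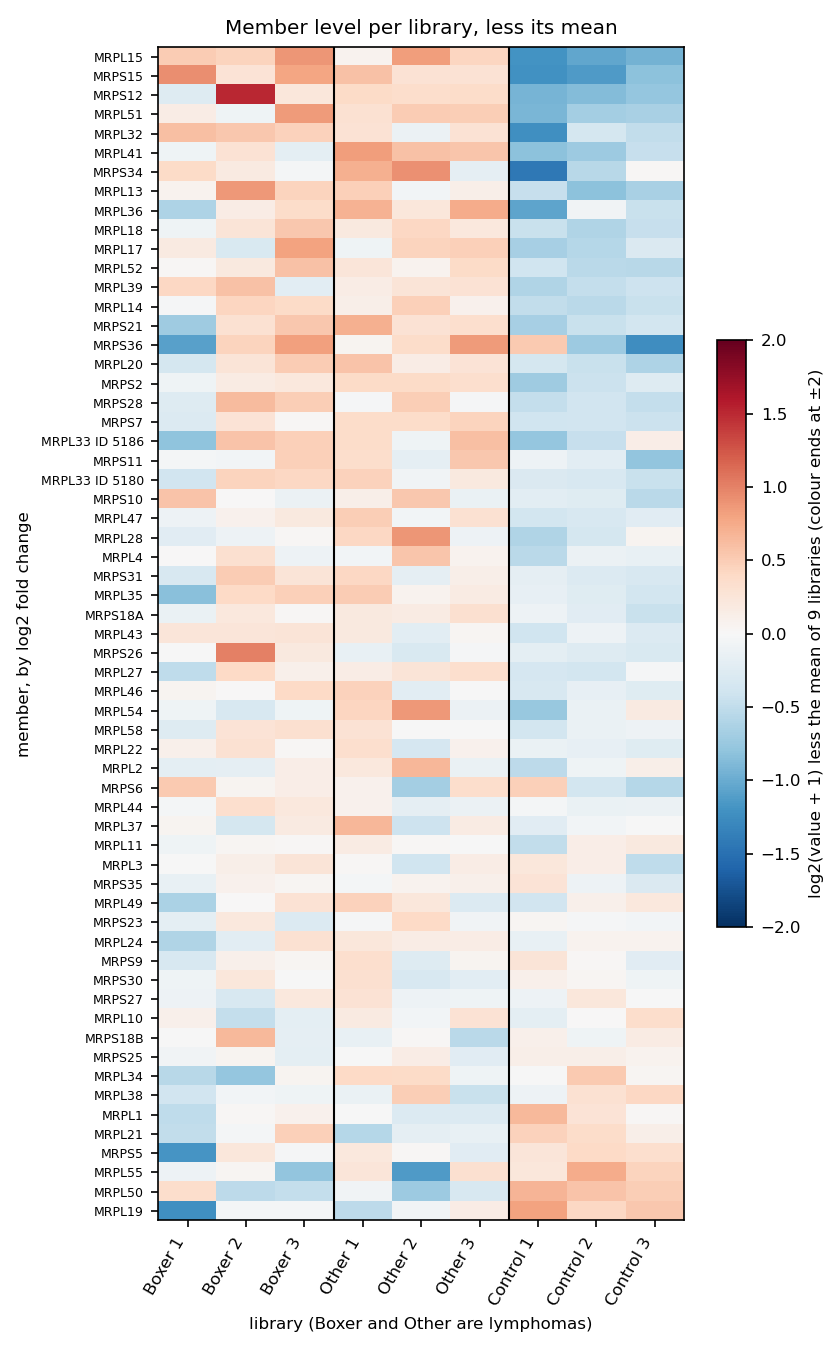
Level of each of the 61 members (rows, ordered by log2 fold change of lymphomas over controls) in each library (columns, Boxer lymphomas, other-breed lymphomas and controls from left to right). Colour gives log2(value + 1) less the member's mean over the 9 libraries. The upper rows are red in lymphomas and blue in controls, the lowest rows are mostly the reverse, and Boxer lymphoma 1 is pale or blue in many rows where the other lymphomas are red.

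Each breed group was also set against the same 3 controls, which the comparisons share. In Boxer lymphomas 10 members rose (16.4%, where 21.5% of all genes rose) and 1 fell (1.6%, where 17.9% of all genes fell). In other-breed lymphomas 14 rose (23.0%, where 15.5% of all genes rose) and 3 fell (4.9%, where 14.2% of all genes fell). MRPL15 had a fold of 3.18 in Boxer lymphomas over controls (limma adjusted p = 0.00103) and 2.83 in other-breed lymphomas (limma adjusted p = 0.00491). On the log2 scale MRPS15 had 1.72 ± 0.22 in Boxers (SE; limma adjusted p = 0.00124) and 1.44 ± 0.18 in the other breeds (SE; limma adjusted p = 0.00248). MRPL13 had 1.10 ± 0.27 in Boxers (SE; limma adjusted p = 0.0151) and 0.82 ± 0.24 in the other breeds (SE; limma adjusted p = 0.0388). MRPL19 was at -1.03 ± 0.34 in Boxers (SE; limma adjusted p = 0.0445) and -0.74 ± 0.22 in the other breeds (SE; limma adjusted p = 0.0448). As the controls are the same 3 libraries, calls made in both comparisons are not independent of each other. The Boxer count of 10 became 5 without control 1, 3 without control 2, 3 without control 3, 6 without Boxer lymphoma 3 and 16 without Boxer lymphoma 1. The other-breed count of 14 became 3 without control 2 and 8 without control 3. Over all genes 3256 rose in Boxers, and 2570, 2108 and 2243 without controls 1 to 3. Without Boxer lymphoma 3 it was 2209 genes, and without Boxer lymphoma 1 it was 2548. The all-gene count of 2265 in the other breeds became 1007 without control 2 and 1216 without control 3. The fallen count of members in Boxers was 0 without any 1 control and 2 without Boxer lymphoma 1. In the other breeds it was 0 without any 1 control and 1 without other-breed lymphoma 1.

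Set directly against each other, Boxer and other-breed lymphomas differed in 0 members in either direction, and 0.0% of the 15112 genes tested passed. edgeR and DESeq2 also called 0 members, and over all genes edgeR called 0, while DESeq2 called 44 higher and 58 lower in Boxers. At an unadjusted p under 0.05 there was 1 member, against 753 genes in all (4.98%). That member was MRPL41, at 278, 360 and 257 normalised reads in Boxer lymphomas and 525, 439 and 432 in other-breed lymphomas. Its Boxer over other-breed log2 fold change was -0.65 ± 0.25 (SE; limma adjusted p = 0.881, and 0.544 to 0.968 over the alternative settings). The next smallest p-values belonged to MRPS26, at 0.56 ± 0.29, and MRPS7, at -0.39 ± 0.23 (SE; limma adjusted p = 0.881 for each). MRPS26 had 856, 1718 and 986 normalised reads in Boxer lymphomas and 777, 697 and 843 in other-breed lymphomas, and MRPS7 had 404, 595 and 497 in Boxers and 634, 635 and 669 in the other breeds. In these genes the values of the breed groups lay apart, but the differences did not pass the test. The median log2 fold change of the 61 members was -0.10, with quartiles at -0.25 and 0.11.

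Together the members took 0.204% ± 0.0132 of the reads in lymphomas (SD, n = 6) and 0.167% ± 0.0054 in controls (SD, n = 3). The share was 0.187%, 0.207% and 0.215% in Boxer lymphomas and 0.214%, 0.212% and 0.187% in other-breed lymphomas, against 0.161%, 0.169% and 0.172% in controls. Every lymphoma was above every control.

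The messenger RNAs that the mitoribosome translates had larger fold changes than most members. All 13 were found, and 12 rose and 0 fell with limma (92.3% that rose, where 19.4% of all genes tested rose). With edgeR 12 rose and with DESeq2 13, and 0 fell in either. The 13 had a median log2 fold change of 1.83, against 0.38 for the members. They took 9.67% ± 3.26 of the reads in lymphomas (SD, n = 6) and 3.12% ± 0.32 in controls (SD, n = 3), with 6.76%, 9.20% and 9.78% in Boxer lymphomas and 7.24%, 9.15% and 15.9% in other-breed lymphomas, against 3.45%, 3.11% and 2.80% in controls. Other-breed lymphoma 3 was highest for these transcripts and, at 0.1868%, lowest for the members. As a share of reads outside the mitochondrially encoded genes, members were at 0.2221% in that library, and the lowest lymphoma was Boxer lymphoma 1 at 0.2009%, against 0.1671% to 0.1765% in controls. MT-ND6, a subunit of complex I, had 39313 ± 9554 normalised reads in lymphomas and 10669 ± 1585 in controls (SD, n = 6 and 3), a change on the log2 scale of 1.85 ± 0.24 (SE; limma adjusted p = 0.000426). Strand settings are not given, so reads counted for MT-ND6 could include those of transcripts from the opposite strand. CYTB, the complex III subunit cytochrome b, changed by 2.09 ± 0.30 (SE; limma adjusted p = 0.000765). COX1, the catalytic subunit of complex IV, was the gene that did not pass, at 0.83 ± 0.43 (SE; limma adjusted p = 0.156).

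Genes of the cytosolic ribosome went the other way. Of 58 found, 48 could be tested, and 32 fell and 0 rose with limma (66.7% that fell, where 15.7% of all genes tested fell). In that test 41 had an unadjusted p under 0.05, and the median log2 fold change was -0.91. With edgeR 33 fell and with DESeq2 34, and 0 rose in either. The 58 took 3.13% ± 0.67 of the reads in lymphomas (SD, n = 6), against 5.79% ± 0.24 in controls (SD, n = 3). Among lymphomas the share ran from 2.26% in Boxer lymphoma 2 up to 4.02% in Boxer lymphoma 3. RPS6, a small-subunit protein phosphorylated downstream of mTOR, fell to 17125 ± 3836 normalised reads in lymphomas, against 56482 ± 8740 in controls (SD, n = 6 and 3), a change on the log2 scale of -1.75 ± 0.24 (SE; limma adjusted p = 0.000581). Cytosolic ribosomal protein genes have many processed copies in mammalian genomes, so reads could be shared or lost there.

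**Figure D4:**
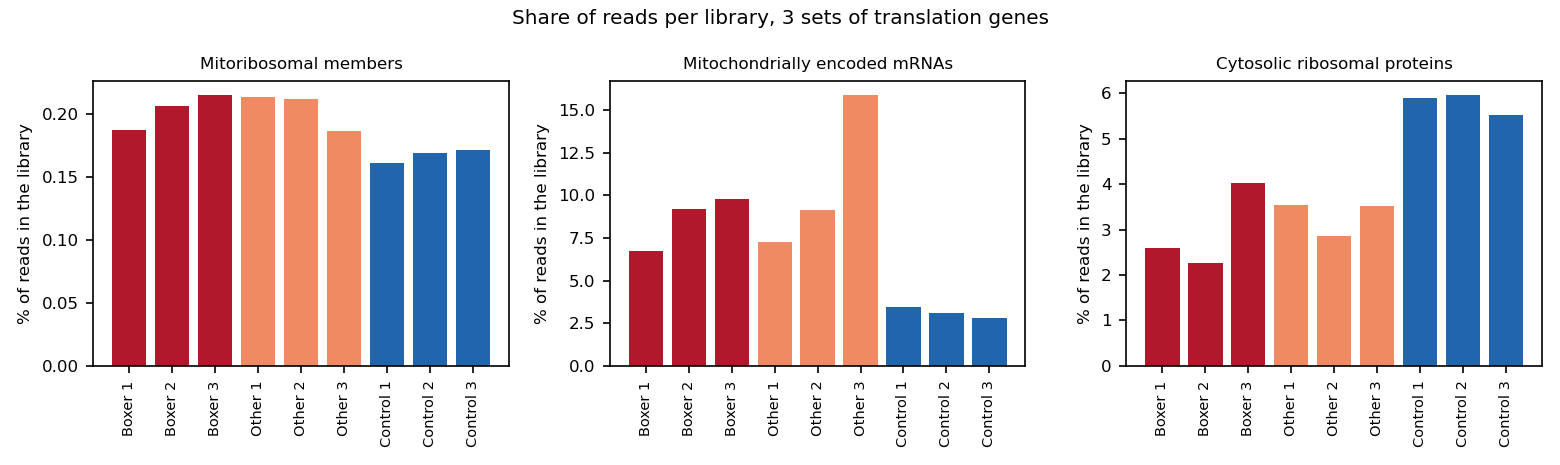
Share of each library's reads (y axis, %, from 0, scaled differently in each panel) taken by the 61 members, by the 13 mitochondrially encoded messenger RNAs and by cytosolic ribosomal protein genes. Bars are libraries, Boxer lymphomas in red, other-breed lymphomas in orange and controls in blue. The lymphoma bars are above the controls in the left and middle panels and below them in the right panel.

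Mitoribosomal proteins known by other symbols were mixed: of 5 tested, 2 rose and 1 fell. GADD45GIP1 (also CRIF1), a large-subunit protein near the exit of the peptide tunnel, had 212 ± 33.1 normalised reads in lymphomas and 82.2 ± 12.8 in controls (SD, n = 6 and 3), a change on the log2 scale of 1.35 ± 0.24 (SE; limma adjusted p = 0.00256). CHCHD1 of the small subunit rose by 1.00 ± 0.26 (SE; limma adjusted p = 0.0148). PTCD3, a pentatricopeptide repeat protein of the small subunit, fell to 1110 ± 253 in lymphomas, against 1835 ± 177 in controls (SD, n = 6 and 3; limma adjusted p = 0.0254).

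Of 25 factors for mitoribosome assembly and ribosomal RNA, 5 rose and 4 fell, with a median log2 fold change of 0.16 (2 and 3 with edgeR, 6 and 4 with DESeq2). Both shares were close to those over all genes tested, 19.4% that rose and 15.7% that fell. RCC1L, which works with assembly GTPases of the large subunit, rose by 1.55 ± 0.26 (SE; limma adjusted p = 0.00174), FASTKD2, which binds the large ribosomal RNA, by 0.58 ± 0.18 (SE; limma adjusted p = 0.0276), and NGRN by 0.66 ± 0.21 (SE; limma adjusted p = 0.0326). MTERF3, which in mouse is needed for large-subunit assembly, had a change on the log2 scale of -1.50 ± 0.35 (SE; limma adjusted p = 0.00868). MALSU1, which sits on the large subunit beside the MRPL14 protein during assembly, had -1.08 ± 0.32 (SE; limma adjusted p = 0.0267), and the assembly GTPase GTPBP10 had -1.40 ± 0.42 (SE; limma adjusted p = 0.0271).

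Of 16 translation factors 4 rose and 2 fell, at a median log2 fold change of -0.20 (4 and 2 with edgeR, 5 and 2 with DESeq2). Among all genes tested 19.4% rose and 15.7% fell with limma, and no difference of this list from those shares was tested. LRPPRC, which stabilises mitochondrial messenger RNA, had 3525 ± 511 normalised reads in lymphomas and 1908 ± 86.8 in controls (SD, n = 6 and 3), a change on the log2 scale of 0.87 ± 0.15 (SE; limma adjusted p = 0.00186). The elongation factor TUFM rose by 0.89 ± 0.20 (SE; limma adjusted p = 0.00718) and the recycling factor MRRF by 0.85 ± 0.20 (SE; limma adjusted p = 0.00840). GUF1, relative of the bacterial elongation factor LepA, fell by 0.90 on the log2 scale (SE 0.23; limma adjusted p = 0.0131), and the release factor MTRF1L by 0.68 (SE 0.22; limma adjusted p = 0.0369). Of 18 genes that charge mitochondrial transfer RNAs, 16 synthetases and the glutamyl-tRNA amidotransferase subunits GATB and QRSL1, 1 rose and 2 fell: EARS2 by 1.73 ± 0.46 (SE; limma adjusted p = 0.0158), and HARS2 and TARS2 with log2 fold changes of -1.14 ± 0.16 and -1.05 ± 0.21 (SE; limma adjusted p = 0.000638 and 0.00415). Both shares, 5.6% that rose and 11.1% that fell, lay below those of all genes tested.

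Genes of mitochondrial DNA replication and transcription passed in 1 of 14 cases, the transcription elongation factor TEFM, at 0.66 ± 0.18 (SE; limma adjusted p = 0.0189). Among 8 tested regulators of nuclear genes for mitochondria 1 rose and 1 fell. In the first list 7.1% rose and 0.0% fell, and in the second 12.5% each way. Of all genes tested 19.4% rose and 15.7% fell. The coactivator PPARGC1B had 172 ± 50.6 normalised reads in lymphomas and 38.8 ± 5.33 in controls (SD, n = 6 and 3), a change on the log2 scale of 2.07 ± 0.32 (SE; limma adjusted p = 0.0012). The transcription factor MYC fell by 0.68 on the log2 scale (SE 0.16; limma adjusted p = 0.00817), to 2142 ± 340 normalised reads in lymphomas, against 3395 ± 251 in controls (SD, n = 6 and 3).

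**Figure D5:**
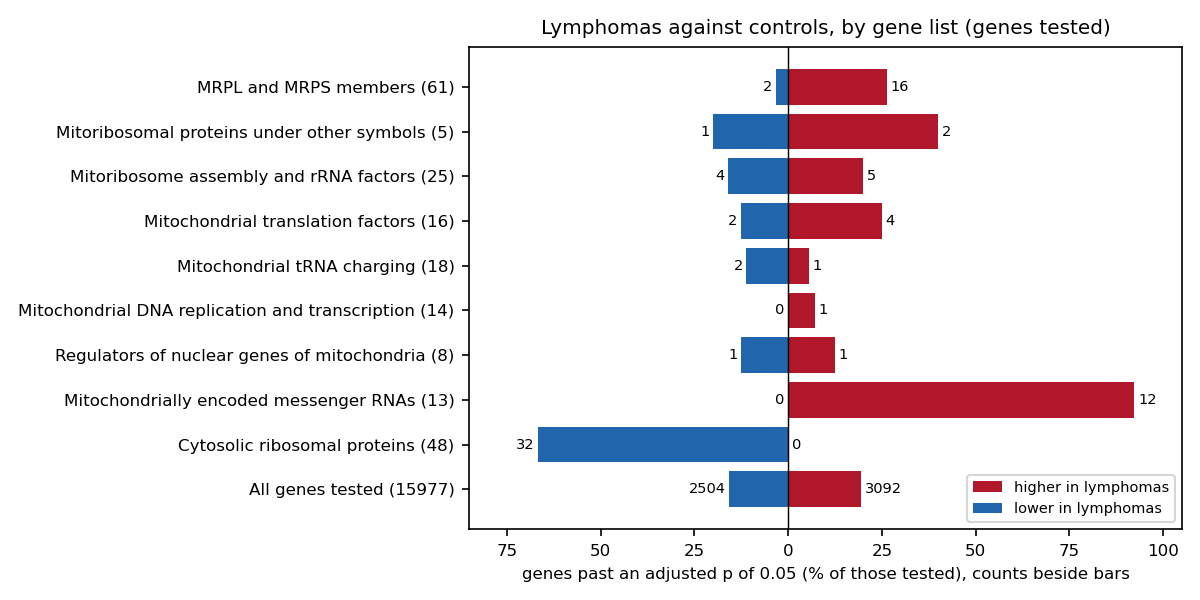
Percentage of tested genes that rose (red, to the right) or fell (blue, to the left) in lymphomas relative to controls at an adjusted p under 0.05, for the members, for 8 related gene lists and for all genes tested, with counts beside the bars and numbers tested in parentheses. The members rose in 16 and fell in 2 of 61 cases, the mitochondrially encoded messenger RNAs rose in 12 of 13, and the cytosolic ribosomal proteins fell in 32 of 48.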

How the data were processed

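Libraries were made from poly(A) RNA with an RNA integrity number above 8.80 in all samples, per the labels' protocols. The submitters' processing notes name the build CanFam3.1 and the tools TopHat2, HTSeq and DESeq2. Versions, strand settings and annotation are not given in the sources used here. The deposited column is a signal, in which the authors scaled each library's gene counts by 1 size factor. Every value (100% per library) was a whole multiple of 1 read within 0.01 reads, so whole reads were recovered. They were 11710623 to 18488468 per library. Values are printed as normalised reads, and levels of single genes were not compared with each other, since gene lengths are not in the files.

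Members were all MRPL and MRPS features. The members, gene lists and named genes were chosen with earlier results of these data known. Members described in full were the 8 largest and 6 smallest fold changes among those past the threshold, the 3 smallest p-values between breed groups, and a set list of functional members; lists were described by up to 3 genes per direction.

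limma 3.58.1 (R 4.3.3) was fitted on log2(value + 1) with a mean-variance trend over all genes that reached 10 in 3 or more of the compared libraries, two-sided. Fold changes on this scale understate those of low genes. No p was computed over the members as a group. Alternatives were edgeR 4.0.16 and DESeq2 1.42.0 on recovered reads, other scalings, filters and pseudocounts (0.5 and 5), left-out libraries, a replicate block, age as a covariate and female dogs alone. The scripts were tested on simulated data. No gene coordinates were used.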

Additional observations from a re-analysis of the deposited data

Results flagged for a closer look

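In 26 groups of 6 lymphoma values, a gap between the most extreme library and its nearest neighbour was compared with Dixon's 95% critical value of 0.625, which chance passes in about 1 of 20 groups. That rate is for groups chosen without sight of their values. MRPS26 was included for its small p-value between the breed groups, which rests on the same values. The critical value was passed by 4 groups. MRPS12 had 554.6 normalised reads in Boxer lymphoma 2, and the next lymphoma had 254.2. MRPS26 had 1717.8 in the same library, and the next had 986.02. MRPS18B had 1002.1 there, and the next had 645.9. The mitochondrially encoded messenger RNAs took 15.868% of the reads in other-breed lymphoma 3, and the next lymphoma had 9.78%. Boxer lymphoma 2 was thus set apart for 3 small-subunit genes, and its share of reads in all members together, 0.207%, lay within the range of the other lymphomas.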

How the results depend on the processing

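For the members named by rule, 655 results under alternative settings kept their direction and their side of the threshold, 109 kept only their direction, 1 newly passed and 17 changed sign. Of 18 members past the threshold, 2 (MRPL15 and MRPS15) passed under all 20 alternatives, and 4 lost the call only with age as a covariate. In lymphomas against controls, the count that rose (16) became 2 with age as a covariate and 7 to 19 when a library was left out. Over all genes the count that rose (3092) became 1048 with age and 1866 to 3291 when a library was left out. The count that fell (2) became 1 with scaling by reads outside the mitochondrial genome, 0 with age, 1 without other-breed lymphomas 1 and 2, and 0 to 3 when a library was left out. In Boxer lymphomas the count that rose (10) ranged over 3 to 16 when a library was left out, and the count that fell (1) became 2 with TMM scaling, 0 without the filter, 0 with edgeR, and 0 to 2 when a library was left out. In other-breed lymphomas the count that rose (14) ranged over 3 to 17 when a library was left out, and the count that fell (3) became 1 with that scaling, 1 without the filter, and 0 to 3 when a library was left out. Leaving out a control leaves 2 in that group; the cause of the other changes was not tested. The labels do not say that a replicate number marks a shared dog, litter or day, and it was not taken to pair the samples (same-numbered libraries deviated with correlations of -0.136 to 0.104). With the replicate block the counts were 15 and 2 for all lymphomas, 5 and 0 for Boxers, and 9 and 1 for other breeds. Members took 0.2255% of the reads without mitochondrially encoded genes in lymphomas and 0.1728% in controls. That scaling moved the median of all genes by 0.09 in all lymphomas and 0.11 in other-breed lymphomas on the log2 scale.

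Signs turned only for members far from the threshold. When a library was left out, log2 fold changes ranged from -0.1395 to 0.2079 for MRPL11, -0.2137 to 0.0657 for MRPL10, -0.1596 to 0.2069 for MRPL3, -0.1019 to 0.0292 for MRPS30 and -0.2311 to 0.0078 for MRPS18B. With scaling by reads outside the mitochondrial genome they were 0.0092 for MRPL10, 0.0607 for MRPS30 and 0.0009 for MRPS18B. With age they were -0.1428 for MRPL3, 0.0804 for MRPS30 and 0.0284 for MRPS18B, and in female dogs alone -0.0412 for MRPL3, 0.0503 for MRPS30 and 0.1153 for MRPS18B. All members but MRPS36 had at least 28 reads in every library.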
